A study of Homo sapiens with 6 samples.

Results

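The interleukin-6 (IL-6) family was followed through 10 genes of 22091 measured, in 3 human hepatocellular carcinoma cell lines with and without transforming growth factor β1 (TGF-β1). The genes were taken from a written list of family cytokines (IL11, LIF, CLCF1 and IL6), receptor chains (IL6R, IL6ST, LIFR and OSMR), the signal transducer STAT3 and the feedback inhibitor SOCS3. All 10 were found by symbol in the expected count tables. Of these, 9 passed the filter on low counts, and IL6 did not.

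Family cytokines signal through receptor complexes that contain gp130, the product of IL6ST. IL-6 and IL-11 first bind their own receptor chains, encoded by IL6R and IL11RA, and then recruit gp130, whereas LIF and CLCF1 complexes also use the LIFR chain and oncostatin M can use the OSMR chain. Receptor-bound JAK kinases then phosphorylate STAT3, which switches on target genes that include SOCS3, whose protein blocks the receptor and its kinases. In liver the pathway is known for the acute-phase response and regeneration.

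There were 3 libraries given TGF-β1 at 2.5 ng/mL for 4 h, 1 each from MHCC97L, MHCC97H and HCCLM3, and 3 control libraries of the same lines, labelled with the same time and no ligand. All 6 cultures were grown in DMEM with fetal bovine serum and antibiotics, and total RNA was sequenced. MHCC97L and MHCC97H are clones of 1 parental tumour line with lower and higher metastatic behaviour, and HCCLM3 was derived from metastases of MHCC97H, so the 3 lines are related. The labels do not state whether each library had a culture of its own.

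Expected counts totalled 21257080 to 23242862 in the TGF-β1 libraries and 18485041 to 22854982 in the controls. Levels are given as CPM (counts divided by library size and scaled up) on library sizes scaled by the trimmed mean of M-values (TMM). Where a library has a count of 0, the level may still be as high as 3 counts, or 0.129 to 0.162 CPM. Each change is a log2 difference, TGF-β1 minus control, from a fit over 3 lines with line as a term, and "passed" means an adjusted p under 0.05 by edgeR's quasi-likelihood test, adjusted by Benjamini-Hochberg over 14176 genes. The p rests on the spread of the response between these 3 lines, since each line and condition has 1 library. The test draws the spread of each gene toward a trend over all genes, so the p does not rest on that gene's 3 lines alone. Of 10 markers of hepatocytes and liver cancer, 8 reached 1 CPM in at least 1 library of each condition, GPC3 was listed at 0 in all 6 libraries, and TTR lay between 0.531 and 0.756 CPM. Only 5 of the 10 did so in all libraries of each condition. The sum of this list was 6586 to 9321 CPM with TGF-β1 and 5903 to 7681 CPM in controls, mostly from the keratin genes KRT8 and KRT18. In HCCLM3, ALB was at 1.26 CPM with TGF-β1 and 1.44 CPM in the control, and APOA1, APOB and SERPINA1 were below 1 CPM in both. PTPRC, which marks leukocytes, was at most 0.131 CPM, while the summed list of 6 leukocyte markers was 118.7 to 268.4 CPM with TGF-β1 and 133.6 to 234.0 CPM in controls, mostly from CD68. Over all 6 libraries CD79A was at 3.27 to 17.4 CPM and LYZ at 2.57 to 4.46 CPM, while CD14 and CD3E stayed below 1 CPM. The 5 endothelial markers summed to 11.1 to 35.3 CPM with TGF-β1 and 13.9 to 41.1 CPM in controls. CDH5, a defining marker of endothelium, was at most 0.348 CPM.

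The 2 genes with the largest responses are shown first with sequence upstream of their start, taken from RefSeq on GRCh38.p14. IL11 (ENSG00000095752.6) lies at chromosome 19, 55364389 to 55370463, on the minus strand, and the 250 bases before its start, chr19:55370464-55370713, read 5′ to 3′ on that strand. Capitals mark the matches to 2 motifs searched on both strands: TGANTCA, bound by AP-1, and CAGAC, bound by SMAD proteins and found here as its reverse complement.

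IL11 upstream: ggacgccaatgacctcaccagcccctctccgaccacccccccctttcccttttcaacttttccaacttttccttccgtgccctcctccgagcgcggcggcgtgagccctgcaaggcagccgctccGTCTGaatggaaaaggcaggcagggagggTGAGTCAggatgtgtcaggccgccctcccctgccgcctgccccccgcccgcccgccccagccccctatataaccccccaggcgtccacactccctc

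The AP-1 match began 96 bases and the SMAD match 125 bases before the start, and they do not overlap. Of 35116 promoter windows in the same table, 6.57% held the AP-1 motif and 38.0% the SMAD motif. IL6R (ENSG00000160712.12) lies at chromosome 1, 154405193 to 154469450, on the plus strand. RefSeq places its start further in, at 154405343, and the 250 bases before that start held neither motif, which says only that these letters are not in this window. Shown are the first 100 of them, chr1:154405093-154405192, which lie 250 to 151 bases before the RefSeq start and end just before the GENCODE start.

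IL6R upstream: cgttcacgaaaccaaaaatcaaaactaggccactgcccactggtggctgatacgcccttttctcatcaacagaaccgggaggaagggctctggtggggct

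The table matched 8 of the 10 genes with 11 promoter windows in all. The AP-1 motif was in 1 of these windows, that of IL11, and the SMAD motif in 5 of the 11. The STAT motif TTCNNNGAA, also searched, was in 2 of the 11, both of LIFR, against 6.57% of all promoter windows. The TATA motif TATAAA was in 1 of the 11, also of LIFR, against 10.7% of all promoter windows. That search took these exact letters only. The IL11 sequence above holds tatataa near its end, which they do not match, so the count does not mean that IL11 lacks a TATA-like stretch. These matches are descriptions of sequence and show no binding. The windows lie before RefSeq starts, which equal the GENCODE start for IL11 and differ from it for the other matched genes. For SOCS3 the RefSeq starts were 78360925 and 78359667, against 78360077 in GENCODE. Neither SOCS3 window holds the bases just before the GENCODE start, so motifs there were not searched.

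The first comparison asks how the family's genes changed after 4 h with TGF-β1. IL11, LIF and CLCF1 rose, IL6R and IL6ST fell, and LIFR, OSMR, STAT3 and SOCS3 did not pass. That is 5 of 9 tested genes, or 55.6%, against 14.4% of all 14176 genes tested. In each direction it is 3 higher against 7.78% of all genes and 2 lower against 6.64% of all genes. The median change of the 9 genes was -0.03, and that of all genes tested was -0.0029. The genes were chosen with earlier results of these data known, so their counts and shares are no independent evidence.

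**Figure D1:**
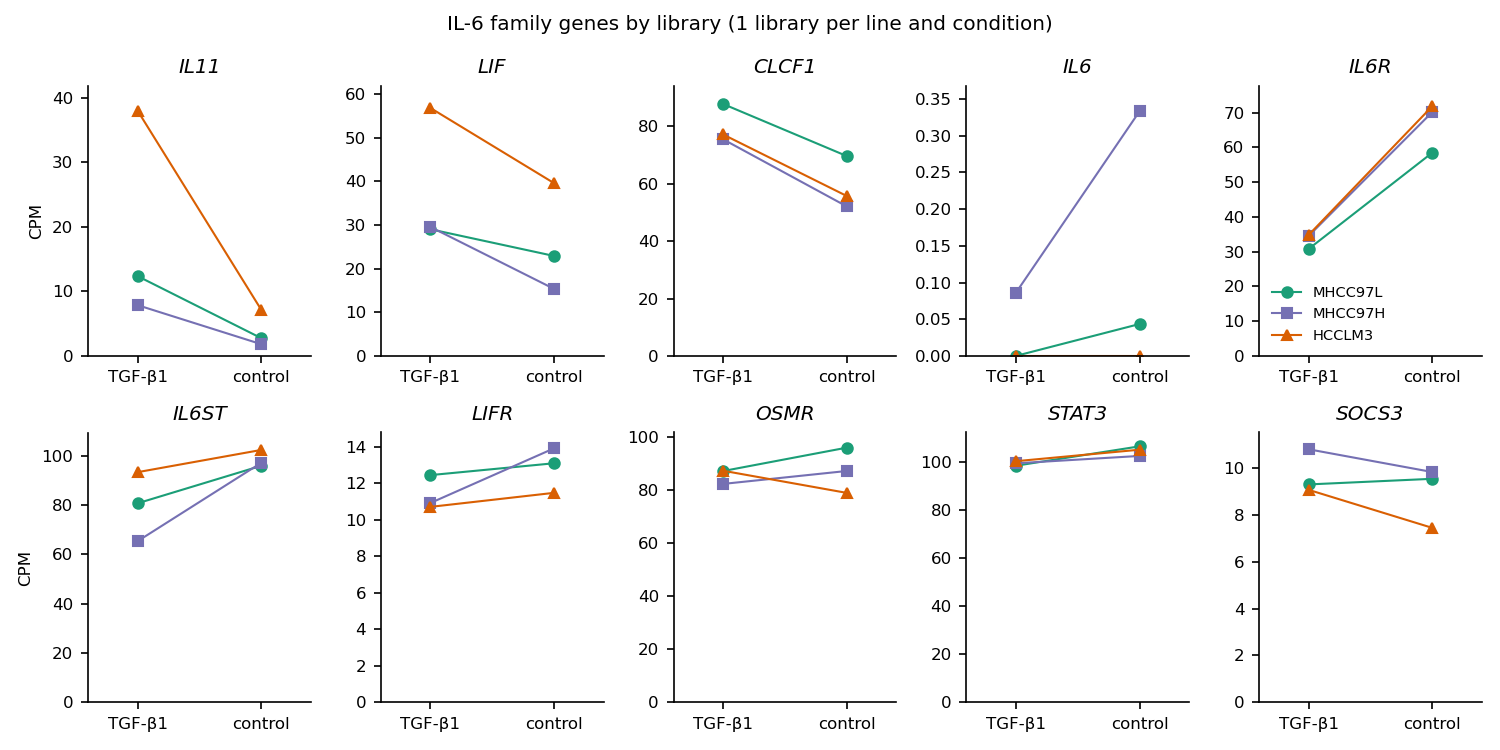
Level in CPM (linear axis from 0) of each of the 10 genes by library, TGF-β1 left and control right, 1 point per line and a line joining the 2 libraries of a cell line. IL11 sits at 7.86 to 38.0 CPM with TGF-β1 and 1.81 to 7.12 CPM in controls, and IL6R at 30.8 to 34.8 CPM with TGF-β1 and 58.5 to 71.9 CPM in controls.

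IL11, a secreted cytokine with known roles in fibrosis and cancer, showed the largest change of the 10. It had 12.4, 7.86 and 38.0 CPM with TGF-β1 in MHCC97L, MHCC97H and HCCLM3, against 2.74, 1.81 and 7.12 CPM in their controls. All TGF-β1 libraries lay above all controls, with HCCLM3 highest in both conditions, and the HCCLM3 control came close to the TGF-β1 library of MHCC97H. IL11 rose by 2.27 on the log2 scale (SE 0.12, 95% interval 1.99 to 2.54, n = 3 lines), which is 4.82-fold, with an adjusted p of 3.26e-05 in edgeR's quasi-likelihood test. Within lines the log2 change was largest in HCCLM3, at 2.40, followed by MHCC97L at 2.13 and MHCC97H at 2.06. Their counting intervals, 2.15 to 2.69, 1.77 to 2.59 and 1.61 to 2.66, overlap.

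LIF, leukaemia inhibitory factor, is a cytokine that signals through LIFR and gp130. On chromosome 22 at 30240447 to 30246851, it had 29.03, 29.6 and 56.8 CPM with TGF-β1 in MHCC97L, MHCC97H and HCCLM3, against 22.9, 15.4 and 39.6 CPM in their controls. Each line was higher with TGF-β1, but the groups overlapped because the HCCLM3 control lay above the TGF-β1 libraries of the other lines. The change in the fit was 0.60 (SE 0.11, 95% interval 0.34 to 0.85, n = 3 lines), with an adjusted p of 0.0112 by edgeR's quasi-likelihood test. The log2 change was largest in MHCC97H at 0.94, against 0.52 in HCCLM3 and 0.34 in MHCC97L. The counting interval of MHCC97H, 0.75 to 1.14, did not meet those of MHCC97L, 0.17 to 0.51, or HCCLM3, 0.39 to 0.66. These intervals cover counting error only, and with 1 library per line and condition a difference in response between lines has no replicate check.

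CLCF1, cardiotrophin-like cytokine factor 1, is a secreted cytokine whose receptor complex includes gp130 and LIFR. It lies on chromosome 11 at 67364168 to 67374177. The level was 87.8, 75.5 and 77.1 CPM with TGF-β1 in MHCC97L, MHCC97H and HCCLM3, against 69.6, 52.1 and 55.7 CPM in their controls. No control reached the lowest TGF-β1 library. CLCF1 rose by 0.45 (SE 0.07, 95% interval 0.28 to 0.61, n = 3 lines), with an adjusted p of 0.00558 by edgeR's quasi-likelihood test. The gene shares 61 exon bases on the same strand with AP003419.1, which had 1821, 1712 and 1201 counts with TGF-β1 against 1256, 925 and 994 counts in controls, in the same line order. How reads in the shared bases were divided between them was not tested.

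IL6, the founding cytokine of the family, was at or near the floor. It had 0, 2 and 0 counts with TGF-β1 in MHCC97L, MHCC97H and HCCLM3, against 1, 7 and 0 counts in their controls. The MHCC97H control, at 0.334 CPM, was the only library above 3 counts, and no fold is given. OSM, the oncostatin M gene, and CTF1, the cardiotrophin 1 gene, also failed the filter, with at most 3 counts per TGF-β1 library and at most 6 per control library.

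IL6R, the ligand-binding receptor chain for IL-6, was the gene of the 10 with the largest fall. It had 30.8, 34.5 and 34.8 CPM with TGF-β1 in MHCC97L, MHCC97H and HCCLM3, against 58.5, 70.2 and 71.9 CPM in their controls. The groups lay far apart, and the spread inside each was small (33.3 ± 2.2 CPM with TGF-β1 and 66.9 ± 7.3 CPM in controls, SD, n = 3 lines each). IL6R fell by 0.9997 on the log2 scale (SE 0.07, 95% interval -1.16 to -0.84), which is 2-fold lower, with an adjusted p of 0.000105 by edgeR's quasi-likelihood test. The lines were close to each other, at -0.93 (MHCC97L), -1.02 (MHCC97H) and -1.05 (HCCLM3). In these bulk libraries fewer cells with the transcript and less transcript per cell cannot be told apart.

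IL6ST, which encodes the shared gp130 chain, fell less. On chromosome 5 at 55935095 to 55994993, it had 80.7, 65.4 and 93.4 CPM with TGF-β1 in MHCC97L, MHCC97H and HCCLM3, against 96.0, 97.2 and 102.4 CPM in their controls. The groups did not overlap, although the HCCLM3 library with TGF-β1 lay close to the lowest control. The log2 change was -0.32 (SE 0.09, 95% interval -0.52 to -0.11, n = 3 lines), with an adjusted p of 0.0470 by edgeR's quasi-likelihood test. This call was near the threshold and did not hold under several settings. The adjusted p was 0.214 without MHCC97L and 0.227 without MHCC97H, where the change was -0.19, and it was 0.0604 with limma-voom, 0.0570 with the non-robust edgeR fit and 0.0688 with no count filter, in a range of 0.00256 to 0.470 over all alternatives.

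LIFR, the receptor chain for LIF, was the lowest of the 4 receptor chains. It had 12.4, 10.9 and 10.7 CPM with TGF-β1 in MHCC97L, MHCC97H and HCCLM3, against 13.1, 13.9 and 11.5 CPM in their controls. Each line was lower with TGF-β1, the groups overlapped, and the change of -0.18 did not pass (95% interval -0.42 to 0.06, adjusted p = 0.297 in edgeR's quasi-likelihood test). OSMR, the oncostatin M receptor chain, had 87.2, 82.3 and 87.3 CPM with TGF-β1 and 96.0, 87.2 and 79.0 CPM in controls, in the same line order. The change over 3 lines was -0.03 (95% interval -0.20 to 0.15, adjusted p = 0.848 in edgeR's quasi-likelihood test), with MHCC97L and HCCLM3 moving in opposite directions. OSMR shares 229 exon bases with RICTOR on the opposite strand, and the labels do not state whether the libraries mark strand.

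STAT3, the transcription factor that carries the signal, is on chromosome 17 at 42313324 to 42388568. It had 98.6, 99.6 and 100.5 CPM with TGF-β1 in MHCC97L, MHCC97H and HCCLM3, against 106.7, 102.7 and 105.3 CPM in their controls. Every TGF-β1 library was slightly below every control. The change of -0.07 did not pass (95% interval -0.22 to 0.07, adjusted p = 0.471 in edgeR's quasi-likelihood test), and transcript levels say nothing of STAT3 phosphorylation. SOCS3, the feedback inhibitor that STAT3 induces, had 9.29, 10.8 and 9.06 CPM with TGF-β1 and 9.53, 9.82 and 7.44 CPM in controls, in the same line order. The SOCS3 groups overlapped, and the change was 0.12 (95% interval -0.14 to 0.38, adjusted p = 0.512 in edgeR's quasi-likelihood test).

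**Figure D2:**
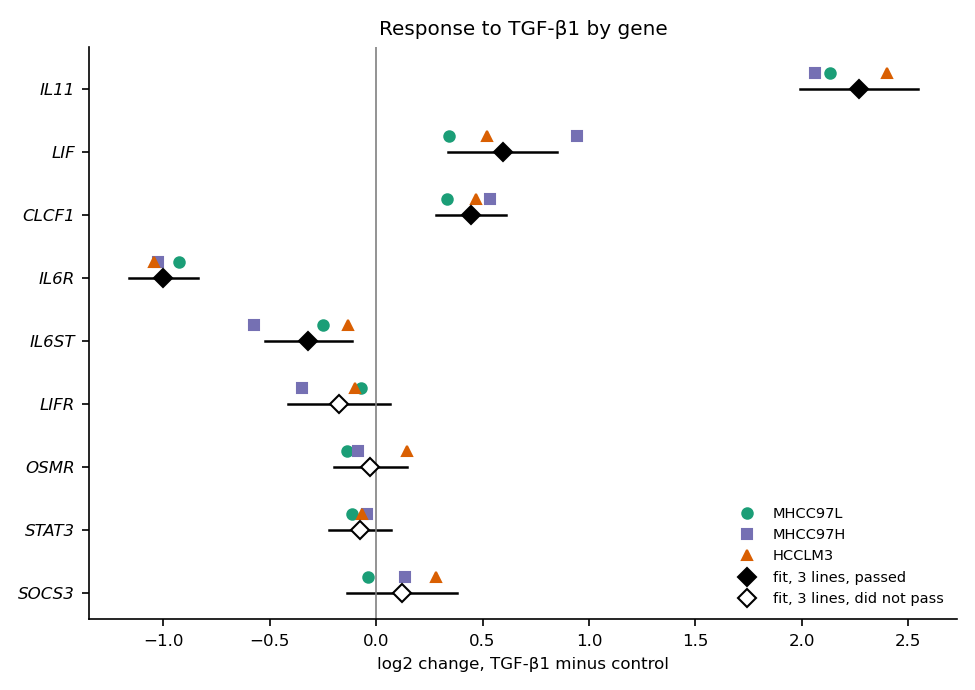
Log2 change, TGF-β1 minus control, of the 9 tested genes. Coloured points are the 3 lines, diamonds the fit over the 3 lines with its 95% interval, filled where the gene passed. The IL11 points lie between 2.06 and 2.40 and the IL6R points between -1.05 and -0.93, while the OSMR points lie on both sides of 0.

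The CPM of the 2 groups did not overlap for 5 of the 9 tested genes, against 18% of all genes tested. IL11 and CLCF1 were higher (8.77% of all genes in that direction), and IL6R, IL6ST and STAT3 were lower (9.19% in that direction). With 1 library per condition, the within-line change was counted at 1.5-fold or more among genes with at least 1 CPM in either library. In MHCC97L, IL11 was higher and IL6R lower past this fold, 2 of 9 measured genes against 9.44% of all measured genes. In MHCC97H, IL11 and LIF were higher and IL6R lower, 3 of 9 against 12.7%. In HCCLM3, IL11 was higher and IL6R lower, 2 of 9 against 9.65%. Since the genes were chosen with earlier results known, these counts too are no independent evidence.

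Levels per kilobase of annotated exon (CPM per kb) allow a rough comparison between genes. The length is the union of all annotated exons of a gene, not that of the transcripts present, so shares and ratios depend on the annotation. How reads in the bases shared by CLCF1 and AP003419.1 were divided was not tested here either. CLCF1 made up most of the summed level of the 4 cytokine genes in every library. Its share was 78.8%, 78.6% and 57.8% with TGF-β1 in MHCC97L, MHCC97H and HCCLM3, against 83.8%, 84.8% and 69.0% in their controls. The IL11 share was 8.21%, 6.05% and 21.0% with TGF-β1, against 2.44%, 2.18% and 6.53% in controls, in the same order. In HCCLM3 with TGF-β1, IL11 at 14.2 CPM per kb was level with LIF at 14.3 CPM per kb, whereas in the HCCLM3 control IL11 was at 2.67 and LIF at 9.97 CPM per kb. The 4 cytokine genes together had 56.4, 48.7 and 67.6 CPM per kb with TGF-β1, against 42.1, 31.1 and 40.8 CPM per kb in controls.

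Among the 4 receptor chains, OSMR, IL6ST and IL6R were close to each other in the controls and LIFR was far below. IL6R had 4.77, 5.35 and 5.39 CPM per kb with TGF-β1 in MHCC97L, MHCC97H and HCCLM3, against 9.07, 10.9 and 11.1 CPM per kb in controls. LIFR lay between 0.903 and 1.049 CPM per kb with TGF-β1 and between 0.967 and 1.17 CPM per kb in controls. The ratio of IL6R to IL6ST, per kb, was 0.549, 0.760 and 0.537 with TGF-β1, against 0.878, 1.04 and 1.01 in controls, so every TGF-β1 library was below every control. The summed receptor level was 26.7, 24.8 and 28.5 CPM per kb with TGF-β1, against 33.9, 34.7 and 34.1 CPM per kb in controls. These are sums of transcript levels, not of protein at the cell surface.

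**Figure D3:**
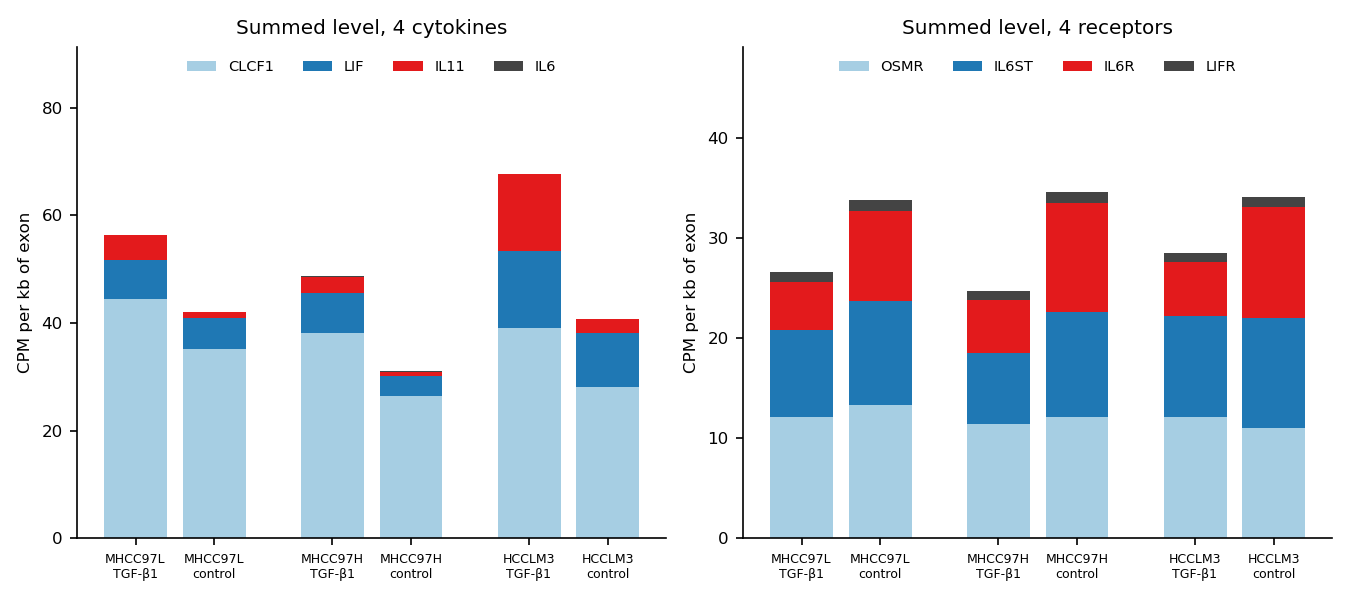
Summed level in CPM per kilobase of exon of the 4 cytokine genes (left) and 4 receptor chains (right), 1 stacked bar per library, TGF-β1 left of control in each line. The cytokine bars reach 48.7 to 67.6 with TGF-β1 and 31.1 to 42.1 in controls, and the receptor bars 24.8 to 28.5 with TGF-β1 and 33.9 to 34.7 in controls.

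The next comparison sets the lines against each other, each with its TGF-β1 and control library, in the same fit with treatment as a term. IL11 and LIF were higher in HCCLM3 than in either other line. HCCLM3 minus MHCC97H was 2.18 for IL11 (SE 0.14, 4.52-fold, adjusted p = 1.76e-05) and 1.13 for LIF (SE 0.14, 2.19-fold, adjusted p = 0.000452) in edgeR's quasi-likelihood test. HCCLM3 minus MHCC97L was 1.53 for IL11 (SE 0.14, 2.896-fold, adjusted p = 7.05e-05) and 0.88 for LIF (SE 0.14, 1.84-fold, adjusted p = 0.00147) in the same test. With 1 library per line and condition, these p values do not cover the spread between repeat cultures of a line. Both comparisons use the same HCCLM3 libraries. The other 7 tested genes did not pass in either. At 2 of 9 genes, or 22.2%, these counts were near the background, since 27.2% of all genes tested passed between HCCLM3 and MHCC97H (13.3% as higher in HCCLM3) and 29.8% between HCCLM3 and MHCC97L (15% as higher in HCCLM3).

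Between MHCC97H and MHCC97L 0 of the 9 genes passed in edgeR's quasi-likelihood test, against 2.45% of all genes tested. Unadjusted p was under 0.05 for 3 of them, against 15.8% of all genes, and DESeq2 and limma-voom each called 0. IL11 came nearest, with MHCC97H minus MHCC97L at -0.64 (SE 0.16, 95% interval -0.9954 to -0.29, adjusted p = 0.0760 in edgeR's quasi-likelihood test). Without the TGF-β1 library of HCCLM3, 2 genes passed, IL11 (adjusted p = 0.0194) and CLCF1 (adjusted p = 0.0108), both lower in MHCC97H by edgeR's quasi-likelihood test. That is 2 of 9 against 10.2% of all genes in that fit. Without the HCCLM3 control the same 2 genes passed, with adjusted p of 0.0191 and 0.0214 in that test, against 8.86% of all genes. The order of IL11 was thus HCCLM3, MHCC97L and MHCC97H in both conditions, with the last 2 not shown to differ with all libraries in the fit.

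None of the other 7 tested genes passed between any 2 lines with all libraries in the fit. Leaving out the TGF-β1 library of HCCLM3 brought 4 genes past the threshold between HCCLM3 and MHCC97L, adding IL6R at 0.28 (adjusted p = 0.0447) and OSMR at -0.27 (adjusted p = 0.0377) in edgeR's quasi-likelihood test, while 30.6% of all genes passed in that fit. IL6ST passed between HCCLM3 and MHCC97H without the MHCC97H control (adjusted p = 0.0113) or without the HCCLM3 control (adjusted p = 0.00818), and between HCCLM3 and MHCC97L without the HCCLM3 control (adjusted p = 0.0471), by the same test. For CLCF1, HCCLM3 minus MHCC97L was -0.25 with TMM scaling (adjusted p = 0.0570) and passed with upper quartile scaling (adjusted p = 0.0452 in edgeR's quasi-likelihood test). For STAT3 the 3 differences between lines were 0.02, 0.00 and -0.02, with signs that turned under other scalings.

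**Figure D4:**
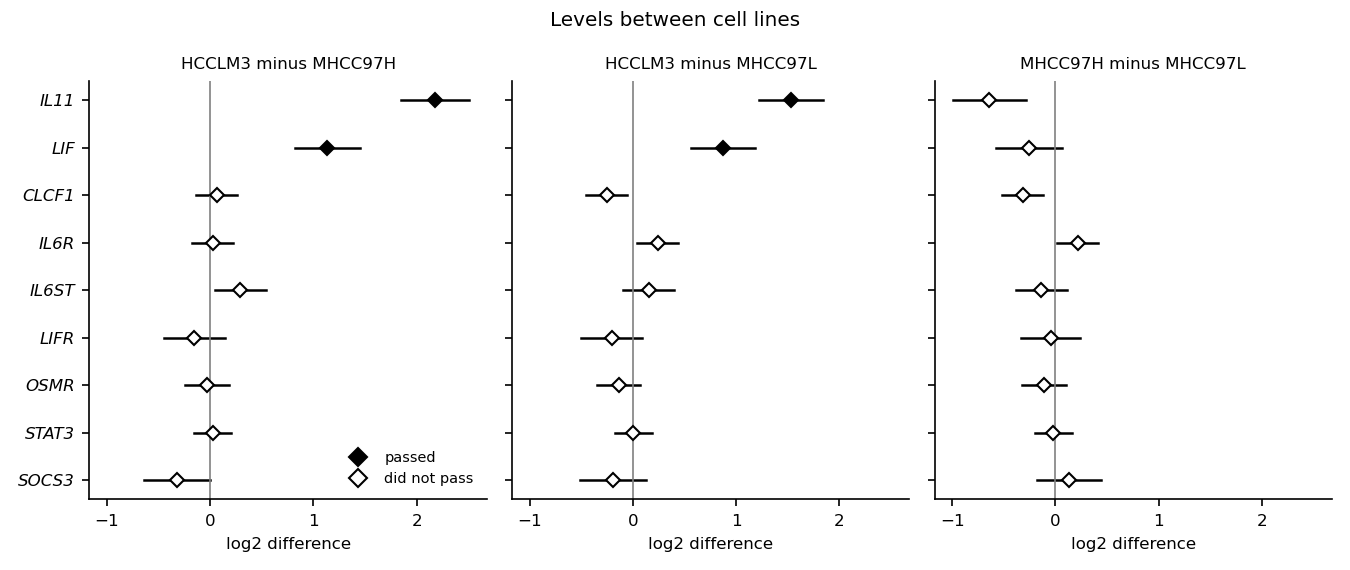
Log2 difference between lines for the 9 tested genes with 95% intervals, filled diamonds where the gene passed. IL11 at 2.18 and 1.53 and LIF at 1.13 and 0.88 are the filled points, all in the 2 panels with HCCLM3.

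By Pearson correlation of log2 CPM over the 6 libraries, among 10440 genes with a mean of at least 5 CPM, the genes most like IL11 were LTBP2 (r = 0.996), WDR83OS (r = 0.995) and RALY (r = 0.992). LTBP2, an extracellular matrix protein gene, differed by 0.78, 0.89 and 0.88 (log2) between TGF-β1 and control in MHCC97L, MHCC97H and HCCLM3, while RALY, an RNA-binding protein gene, differed by 0.13, 0.19 and 0.18. The correlation reads the shape over libraries and not the size of the change. Most like LIF were WNT7B (r = 0.995), a Wnt ligand gene, ABL1 (r = 0.992), a kinase gene, and MICALL1 (r = 0.991). Most like SOCS3 were KIAA1522 (r = 0.985), THRA (r = 0.980), a thyroid hormone receptor gene, and CBFA2T2 (r = 0.976). The 6 points of each correlation share their line, treatment and depth, and the values are descriptions.

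A written list of 58 other genes of the pathway was read from the same fit, and 45 were tested. The list was chosen with results of these libraries known and is no independent evidence. Of the 45, 7 rose and 3 fell, or 22.2% against 14.4% of all genes tested, and the median change was 0.00. The genes that rose were SOCS1, JUNB, BCL3, MCL1, STAT5B, CEBPB and TIMP1, and those that fell were SOCS2, CEBPD and MYC.

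CNTF, ciliary neurotrophic factor, was the 1 cytokine gene of the list that was tested, and it did not pass (change -0.27, adjusted p = 0.746 in edgeR's quasi-likelihood test).

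IL11RA, the receptor chain for IL-11, was expressed at a low level. It had 1.78, 1.504 and 2.33 CPM with TGF-β1 in MHCC97L, MHCC97H and HCCLM3, against 1.09, 1.38 and 2.13 CPM in their controls. The groups overlapped and the change of 0.30 did not pass (95% interval -0.22 to 0.83, adjusted p = 0.419 in edgeR's quasi-likelihood test). CNTFR, another receptor chain on the list, had 2 to 11 counts per library and failed the filter on low counts. Of 5 tested receptor and sheddase genes on the list, 0 passed with edgeR, against 14.4% of all genes tested, and 0 with DESeq2 and with limma-voom. At an unadjusted p under 0.05 there were 2, against 30.5% of all genes.

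Of 9 tested kinase, STAT and adaptor genes 1 passed, or 11.1% against 14.4% of all genes. It was STAT5B at 0.29 (adjusted p = 0.0402 in edgeR's quasi-likelihood test), which did not pass with DESeq2 (0.0710), upper quartile scaling (0.0544) or library totals (0.0813). JAK1, a kinase bound to gp130, had 208.1, 203.1 and 260.5 CPM with TGF-β1 in MHCC97L, MHCC97H and HCCLM3, against 187.4, 177.9 and 231.2 CPM in their controls, and did not pass (0.17, adjusted p = 0.0971 in the same test). JAK2, another such kinase, had 1.69, 2.15 and 1.89 CPM with TGF-β1 and 2.57, 2.81 and 2.60 CPM in controls, in the same line order. Its groups did not overlap, but the change of -0.48 did not pass (adjusted p = 0.125 in edgeR's quasi-likelihood test).

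Inhibitors moved both ways, with 2 of 7 tested genes past the threshold, or 28.6% against 14.4% of all genes. DESeq2 called 0 of them, with an adjusted p of 0.0516 for SOCS2 and none given for SOCS1. SOCS1, which blocks JAK kinases, had 28, 16 and 30 counts with TGF-β1 in MHCC97L, MHCC97H and HCCLM3, against 7, 6 and 7 counts in their controls. It rose by 1.79 (SE 0.37, adjusted p = 0.0156 in edgeR's quasi-likelihood test). SOCS2, a related inhibitor best known in growth hormone signalling, had 0.978, 2.49 and 15.3 CPM with TGF-β1 and 1.87, 3.53 and 25.0 CPM in controls, in the same line order. SOCS2 fell by 0.69 on the log2 scale (SE 0.14, adjusted p = 0.0131 in the same test), within lines whose levels lay far apart.

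Target genes held 7 of the 10 that passed, of 16 tested, or 43.8% against 14.4% of all genes. DESeq2 called 6 of the 16, or 37.5% against 10% of all genes. JUNB, which encodes a subunit of AP-1, had 399.7, 397.6 and 535.6 CPM with TGF-β1 in MHCC97L, MHCC97H and HCCLM3, against 88.8, 64.3 and 117.5 CPM in their controls. It rose by 2.33 (SE 0.10, adjusted p = 1.17e-05 in edgeR's quasi-likelihood test). BCL3, a regulator of NF-κB, rose by 0.50 (adjusted p = 0.00184) and MCL1, a survival gene, by 0.34 (adjusted p = 0.0105) in the same test. The changes of the rest were small, with CEBPB at 0.25 and TIMP1 at 0.24, against CEBPD at -0.38 and MYC at -0.26 (adjusted p from 0.0372 to 0.0459 in edgeR's quasi-likelihood test). Of 7 alternatives in tool, scaling or filter, CEBPB lost its call in 5, CEBPD in 4, MYC in 3 and TIMP1 in 2, with adjusted p of up to 0.0946, 0.155, 0.0656 and 0.0829 in that order. Several targets on this list are known targets of other pathways too.

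Acute-phase genes, which liver cells switch on through STAT3, had 0 of 7 tested genes past the threshold in edgeR's quasi-likelihood test, against 14.4% of all genes. At an unadjusted p under 0.05 there were 3, against 30.5% of all genes, and DESeq2 and limma-voom each called 0. These 3, FGA at -0.53, FGG at -0.66 and SERPINA3 at -1.66, were lower with TGF-β1, and all lay below 1 CPM in both HCCLM3 libraries. A further 6 of the 13 listed acute-phase genes failed the filter on low counts. Among them CRP, the gene of C-reactive protein, was listed at 0 in all 6 libraries.

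**Figure D5:**
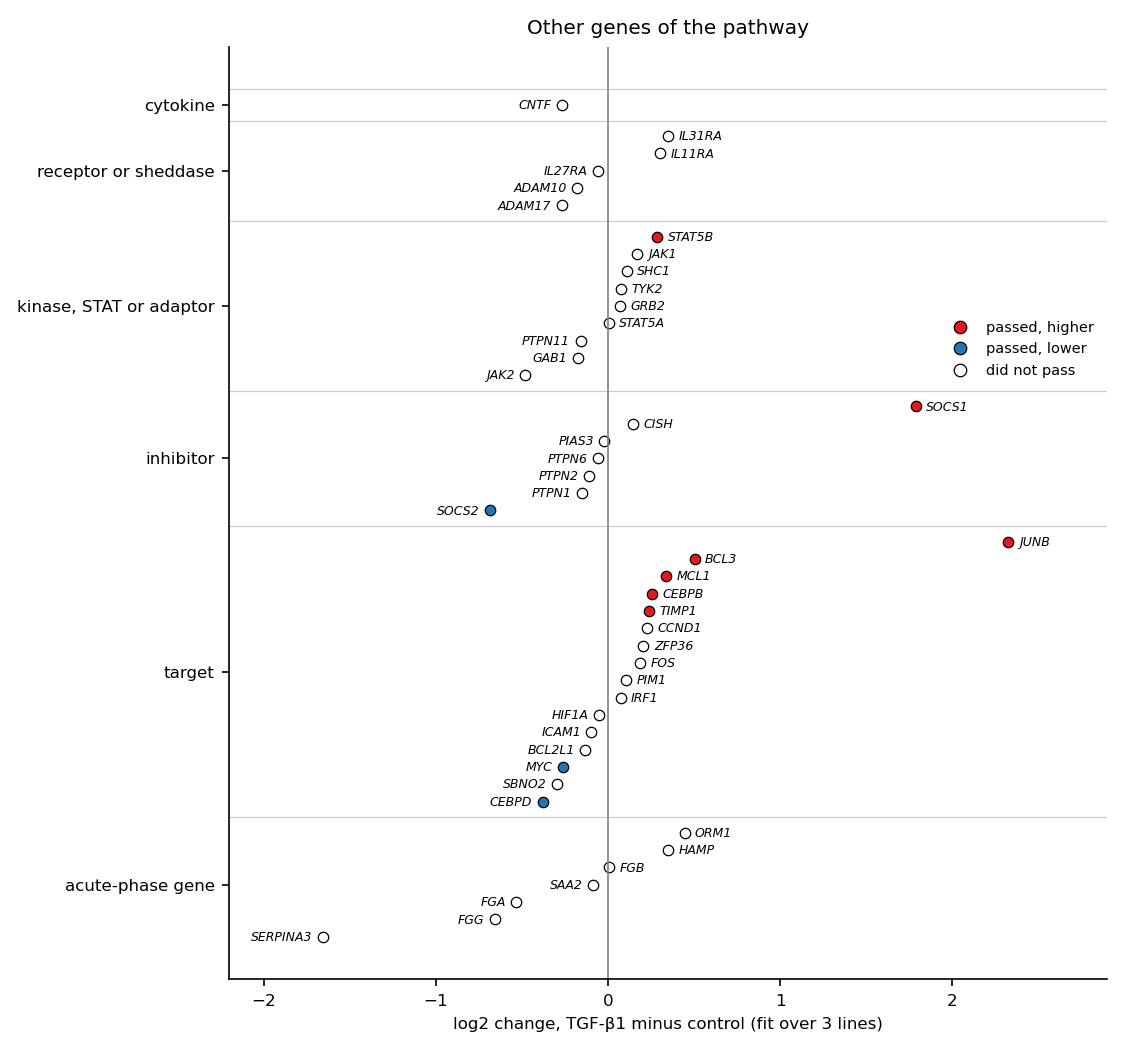
Log2 change, TGF-β1 minus control, from the fit over 3 lines, for the 45 tested genes of the pathway list, ordered within each role. Red points passed and rose, blue points passed and fell, open points did not pass. JUNB at 2.33 and SOCS1 at 1.79 stand apart on the right, and SERPINA3 at -1.66, which did not pass, on the left.

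Only JUNB and BCL3 of these 10 genes passed with each line left out in turn, and the list had 2 calls without MHCC97L, 6 when MHCC97H was left out and 14 when HCCLM3 was, while 4.29%, 6.85% and 27.7% of all genes passed in those fits. Without MHCC97L, adjusted p was 0.122 for SOCS1, 0.0683 for SOCS2, 0.124 for MCL1, 0.180 for CEBPD, 0.365 for CEBPB, 0.399 for TIMP1, 0.407 for STAT5B and 0.475 for MYC in edgeR's quasi-likelihood test. Without MHCC97H it was 0.0721 for CEBPD, 0.0774 for TIMP1, 0.131 for STAT5B, 0.137 for MYC and 0.177 for CEBPB. Without HCCLM3 it was 0.0773 for SOCS2 and 0.0792 for CEBPD.

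Of 7 markers of stellate cells and fibroblasts, 4 reached 1 CPM in at least 1 library with TGF-β1 and 3 in controls. Their sum was 19.2 to 38.7 CPM with TGF-β1 and 10.6 to 34.5 CPM in controls. COL1A1 was at 5.57 to 7.20 CPM with TGF-β1 and 0.305 to 0.477 CPM in controls, while COL1A2, PDGFRB and ACTA2 were at most 0.400 CPM with TGF-β1 and at most 0.305 CPM in controls. LUM was at 10.4 to 17.7 CPM with TGF-β1 and 9.27 to 16.9 CPM in controls. In HCCLM3, COL3A1 was at 11.7 CPM with TGF-β1 and 14.4 CPM in the control, and DCN at 3.49 and 2.50 CPM. In the other lines COL3A1 was at most 0.381 CPM and DCN at most 0.845 CPM. The part of COL1A1-expressing cells in the cytokine and receptor changes was not tested.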

How the data were processed

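RNA sequencing of 6 libraries from 3 cell lines was analysed. The authors deposited a file of expected counts for each library, keyed by Ensembl ID. Per the submitters' processing notes, the build was hg38 and the tools included Cuffdiff 1.3.0, Cufflinks 2.2.1 and TopHat2 2.1.1, with no roles given, and the counting tool and library strand are not given in the sources used here. Of 22091 IDs, 19574 matched a symbol. The IDs of all 10 genes carry the same version as in GENCODE 29 (GRCh38), which gave coordinates, overlaps and exon lengths. Coordinates are 1-based.

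Expected counts were rounded to whole numbers, which changed a total by at most 134 counts. Unrounded counts had no decimals in any library for 12560 genes, but had them for IL11, CLCF1, IL6R, OSMR and STAT3, as arises when reads are divided among genes or transcripts. Totals for MHCC97L, MHCC97H and HCCLM3 in turn were 23085194, 23242862 and 21257080 with TGF-β1, against 22854982, 20407269 and 18485041 without.

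Tests ran in R 4.3.3 with edgeR 4.0.16 (robust quasi-likelihood F test, TMM, filterByExpr by treatment, line and treatment as terms, 2 residual degrees of freedom, Benjamini-Hochberg threshold 0.05), and limma 3.58.1 and DESeq2 1.42.0 as alternatives. Intervals, tables and plots used scipy 1.17.1, matplotlib 3.10.9, numpy 2.4.6 and pandas 2.3.3 under Python 3.11.15. The labels pair the libraries by line. As a check, the deviations from the condition mean of a line's 2 libraries correlated at 0.587, 0.456 and 0.728 across genes.

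Within-line changes use log2 CPM (prior count 2), with exact conditional binomial 95% intervals. Reads carried no molecular identifiers that the sources mention, so intervals and floors hold for counting error alone. All 10 genes are named. Of the other pathway genes, those past the threshold and OSM, CTF1, CNTF, IL11RA, JAK1, JAK2 and SOCS1 are named by rule. CRP, SERPINA3, FGA, FGG and CNTFR were added after their values were seen. The 3 genes most correlated with IL11, LIF and SOCS3 were named. Alternatives were other scalings, filters and tools, no line term, and leaving out lines or libraries. The members and lists were chosen with earlier results of these data known. In the pathway list, 13 of 58 genes did not pass the filter on low counts, and 2 more genes were left out of all its counts and are not reported here. Exons overlap an annotated gene on the opposite strand for LIF, IL6, IL6ST, LIFR, OSMR, JUNB, SOCS2, CEBPB, IL11RA and JAK1, and on the same strand for CLCF1, CNTF, IL11RA, BCL3 and MCL1. Without a stated strand, reads from opposite genes cannot be told apart.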

Additional observations from a re-analysis of the deposited data

Results flagged for a closer look

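OSMR is singled out because its response to TGF-β1 had opposite directions in 2 lines. The log2 difference, TGF-β1 minus control, was -0.139 in MHCC97L (counting interval -0.23 to -0.05) and 0.145 in HCCLM3 (counting interval 0.05 to 0.25). In MHCC97H it was -0.08, with an interval of -0.18 to 0.01 that includes 0. The difference between the lines was not tested, since each line and condition has 1 library and the intervals cover counting error only. RICTOR, which overlaps OSMR on the opposite strand, had 384, 413 and 447 counts with TGF-β1 in MHCC97L, MHCC97H and HCCLM3, against 538, 547 and 489 counts in their controls, and its part in the OSMR counts was not tested.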

How the results depend on the processing

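IL11, LIF, CLCF1 and IL6R passed under 10 of the 11 alternatives for TGF-β1, all but the fit without cell line as the replicate block. That fit ignores the pairing by line and called 0 of the 9 genes, 0 of the 45 other pathway genes and 10 of all genes, against 2044 with the block. At an unadjusted p under 0.05 it gave 3 of the 9 and 7 of the 45. The share of all genes at that p was not counted for this fit, so these 2 counts have no background to be read against. Its adjusted p was 0.322 for IL11, 0.680 for LIF, 0.287 for CLCF1, 0.470 for IL6ST and 0.0562 for IL6R in edgeR's quasi-likelihood test, with changes close to those of the paired fit. All genes called numbered 1423 by DESeq2 and, with a line left out, 611 without MHCC97L, 980 without MHCC97H and 3973 without HCCLM3. Of the other pathway genes, DESeq2 called 6, and leaving out a line gave 2 to 14. Leaving out a library gave 2 to 4 genes between HCCLM3 and MHCC97L and 0 to 2 between MHCC97H and MHCC97L, while 14.3% to 32% and 0.663% to 10.2% of all genes passed in those fits. These counts vary with the samples and tool, and the cause was not tested. No scaling moved the median of all genes by more than 0.1, and with library totals it was -0.05 for TGF-β1.

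Small differences changed sign. With a line left out, the TGF-β1 change ranged from -0.12 to 0.031 for OSMR and from -0.93 to 0.11 for CNTF. With a library left out, HCCLM3 minus MHCC97H ranged from 0.00 to 0.13 for CLCF1, with the sign turned at its low end, from -0.16 to 0.11 for OSMR and from -0.0034 to 0.0579 for IL6R. HCCLM3 minus MHCC97L ranged from -0.27 to 0.0027 for OSMR and from -0.028 to 0.032 for STAT3. MHCC97H minus MHCC97L ranged from -0.18 to 0.086 for LIFR, from -0.33 to 0.051 for IL6ST and from -0.050 to 0.0094 for STAT3. Upper quartile scaling gave -0.0131 for STAT3 in HCCLM3 minus MHCC97L. Library totals gave -0.0048 for IL6R and -0.0049 for STAT3 in HCCLM3 minus MHCC97H, and 0.0159 for STAT3 in MHCC97H minus MHCC97L. None of these passed except OSMR at -0.27. Depth limits IL6, OSM and CTF1, which lay near the limit of detection, and widens the intervals of SOCS1 and IL11RA.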
